A study of Mus musculus with 25 samples.

Results

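The chemokine and leukocyte adhesion genes Ccl2, Ccl5, Cxcl1, Cxcl12, Cxcl16, Cx3cl1, Vcam1 and Icam1 were followed in mouse pancreatic islets. They were found by gene symbol, and these 8 genes stand among 17885 genes listed in any of the 4 expression tables. Islet messenger RNA was sequenced in a study of BAF60C, a chromatin remodelling subunit encoded by Smarcd3, and of REG3B, a secreted lectin. Values are FPKM (fragments relative to transcript length and to library size) from 19 libraries, and each library holds islets pooled from at least 3 mice. The libraries labelled BcBKO, HFD came from mice with a beta-cell-specific ablation driven by Pdx1-cre, and those labelled flox/flox, HFD from mice with floxed alleles; both groups had 2 libraries after 3 months of high-fat diet (HFD). Pdx1 is also active in the embryonic pancreas outside beta cells. KO_REG3B-Fc, KO_PBS and CTR_PBS had 2 libraries each, and the labels do not spell out the knocked-out gene or how REG3B-Fc or PBS was given. The libraries labelled db_REG3B and db_GFP, 2 each, carry db in both names, and neither db nor the route of REG3B or GFP is spelled out. A further 5 libraries are labelled WT. Age is not given in the labels used here.

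Chemokines are small proteins that guide leukocytes by binding G protein-coupled receptors, and most are secreted and held on matrix and vessel walls. Cxcl16 and Cx3cl1 are made instead as transmembrane proteins on a mucin-like stalk, from which the proteases Adam10 and Adam17 can release them. Vcam1 and Icam1 sit on activated endothelium and other cells and hold leukocytes through their integrins. In islets these genes are known as targets of inflammatory cytokines acting through NF-kB, and islet endothelium, resident macrophages, stellate cells and endocrine cells have each been described as sources.

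On the mouse build GRCm38, in the GENCODE M21 annotation, all 8 are protein-coding genes. Ccl2 lies at chr11:82035571-82037453 on the plus strand, Ccl5 at chr11:83525778-83530518 on the minus strand and Cxcl16 at chr11:70453983-70459984 on the minus strand. Cxcl1 lies at chr5:90891241-90893115, Cxcl12 at chr6:117168535-117181367, Cx3cl1 at chr8:94772009-94782427 and Icam1 at chr9:21015985-21028817, all on the plus strand. Vcam1 lies at chr3:116109949-116129688 on the minus strand. Ccl2 overlaps Gm17268, Cxcl16 overlaps Zmynd15, Vcam1 overlaps the antisense gene Gm43109 and Icam1 overlaps the antisense gene Gm47079. Each partner is on the opposite strand, and since strandedness is not given in the sources used here, reads from the pairs cannot be told apart.

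Promoter windows of 250 bases before the RefSeq start (GRCm38.p6) matched 4 of the 8 genes by gene identifier, namely Cxcl1, Cxcl12, Cx3cl1 and Icam1. Those of Cxcl1, Icam1 and Cxcl12 are shown because these genes moved together in the db libraries while only the Cxcl1 and Icam1 windows hold the NF-kB core GGANTTTCC. The motif was searched on both strands and chosen with the sequences in view; its match is in capitals, and each window is printed 5′ to 3′ on the plus strand.
Cxcl1, chr5:90890995-90891244: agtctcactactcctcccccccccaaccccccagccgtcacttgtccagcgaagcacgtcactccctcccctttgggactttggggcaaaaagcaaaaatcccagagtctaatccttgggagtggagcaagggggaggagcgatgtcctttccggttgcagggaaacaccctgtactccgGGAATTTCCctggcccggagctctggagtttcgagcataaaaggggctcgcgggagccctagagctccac
Icam1, chr9:21015690-21015939: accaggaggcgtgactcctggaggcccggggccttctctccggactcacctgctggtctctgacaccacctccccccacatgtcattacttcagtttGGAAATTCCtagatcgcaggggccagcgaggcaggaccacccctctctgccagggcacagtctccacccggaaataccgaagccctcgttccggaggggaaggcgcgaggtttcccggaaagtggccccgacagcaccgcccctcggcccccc
Cxcl12, chr6:117168285-117168534: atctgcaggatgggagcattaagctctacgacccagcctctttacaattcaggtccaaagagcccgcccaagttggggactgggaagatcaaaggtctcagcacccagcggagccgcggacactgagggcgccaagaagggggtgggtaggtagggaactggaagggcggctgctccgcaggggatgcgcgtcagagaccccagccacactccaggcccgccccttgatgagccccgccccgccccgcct
The match in Cxcl1 starts 70 bases before the RefSeq start, and that in Icam1 lies on the minus strand and starts 153 bases before it. Among 32851 RefSeq promoter windows of the same length, 1.07% hold GGANTTTCC on either strand. The GC box GGGCGG, held by 32.7% of those windows, occurs in those of Cxcl12 and Icam1 among the 3 shown. A match describes the letters only.

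The tables hold 4 sets of libraries that the authors normalized separately, so levels are compared within a table. Smarcd3 was listed at 3.11 and 2.40 FPKM in the libraries labelled BcBKO, against 2.57 and 2.55 FPKM in those labelled flox/flox, so its level did not separate the labels. Smarcd3 also overlapped between KO_PBS and CTR_PBS. Reg3b, the gene for REG3B, was at 10.4 and 9.98 FPKM in db_REG3B libraries, against 21.8 and 26.5 FPKM in db_GFP libraries. On HFD it was at 33.8 and 21.3 FPKM in BcBKO, against 77.7 and 78.0 FPKM in flox/flox libraries. Its levels were 304 and 312 FPKM in KO_REG3B-Fc and 1227 and 1181 FPKM in KO_PBS, against 667 and 634 FPKM in CTR_PBS. Read depth is unknown and was not worked out from low FPKM values. Some of these repeat across libraries, such as Klrd1 at 0.05 FPKM in every CTR_PBS and KO_REG3B-Fc library, so very low values may rest on few reads. Beta cell markers summed to between 347036 and 941858 FPKM per library, as the islet label says, and acinar markers to between 416 and 372530 FPKM. In the KO_PBS libraries the median gene was lower than in CTR_PBS as deposited (log2 change -0.44), and the median gene of KO_REG3B-Fc was higher than in KO_PBS by 0.53. The tests below are on log2(FPKM + 1) after median scaling, which sets this shift to about 0; the pseudocount makes a log2 change understate that of a low gene. Values called FPKM are as deposited. Adjusted p-values come from limma, with the Benjamini-Hochberg method applied over every gene tested and 0.05 as the threshold. They rest on the spread between the 2 pooled libraries of each group, shared over all groups of a table and moderated across genes. How far that spread reflects variation between mice cannot be told from these libraries.

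In the db libraries each of the 8 genes was lower in both db_REG3B libraries than in both db_GFP libraries, and each passed the test. In this comparison 26.7% of all 12507 tested genes were called lower and 18.6% higher. The split was 2328 higher and 3335 lower genes after median scaling, and 1530 higher and 3856 lower as deposited. Ccl2, Ccl5 and Cxcl1 reached the minimum of 1 FPKM in db_GFP only, so they could enter the test only by being higher there, and their falls carry no weight in a count. The other 5 had at least 1 FPKM in all 4 libraries, and each of them fell, with a median change of -1.27, against -0.01 over all tested genes.

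Ccl2, which draws monocytes through the receptor Ccr2, was at 0.11 and 0.11 FPKM in db_REG3B, against 13.8 and 12.7 FPKM in db_GFP. Both db_REG3B libraries lay near the bottom of the scale and both db_GFP libraries far above, with a ratio of means (db_GFP over db_REG3B) of 120.5. The change was -3.65 ± 0.08 (SE; adjusted p = 8.73e-08, limma), and without a filter on low values it was the same size with an adjusted p of 1.26e-04. Cxcl1, a neutrophil attractant that signals through Cxcr2, was at 0.42 and 0.34 FPKM in db_REG3B, against 3.98 and 4.13 FPKM in db_GFP. It followed the same order with no overlap, and the change was -1.84 ± 0.09 (adjusted p = 3.58e-06). Like Ccl2, Cxcl1 entered the test through db_GFP alone. Without a filter its change was the same size (adjusted p = 4.85e-04, limma).

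Cxcl12, which retains leukocytes and progenitors through Cxcr4, was at 1.62 and 1.46 FPKM in db_REG3B, against 4.44 and 3.66 FPKM in db_GFP. The groups did not overlap, and the change was -0.95 ± 0.10 (adjusted p = 1.95e-04). Ccl5, which attracts T cells and macrophages, was at 0.94 and 0.26 FPKM in db_REG3B, against 1.42 and 2.55 FPKM in db_GFP. All its libraries were low and the replicates of each group were wide apart. Its change of -0.88 ± 0.24 passed (adjusted p = 0.0188), but not without a filter (adjusted p = 0.0867) or without db_REG3B replicate 2 (adjusted p = 0.0904). The authors' deposited table gives Ccl5 an adjusted p of 0.389.

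The transmembrane chemokine Cxcl16, the ligand of Cxcr6 and a scavenger receptor for oxidised lipoprotein, was the most abundant of the 8 in db islets. It was at 8.82 and 11.4 FPKM in db_REG3B, against 27.6 and 25.6 FPKM in db_GFP. Cx3cl1 (fractalkine), the ligand of Cx3cr1, was at 3.34 and 3.71 FPKM in db_REG3B, against 6.90 and 7.95 FPKM in db_GFP. Neither overlapped between groups. Cxcl16 changed by -1.27 ± 0.09 (adjusted p = 2.96e-05) and Cx3cl1 by -0.85 ± 0.09 (adjusted p = 1.42e-04).

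Icam1, the ligand of the integrin LFA-1 (Itgal with Itgb2), was at 1.40 and 1.33 FPKM in db_REG3B, against 9.24 and 9.26 FPKM in db_GFP. Vcam1, the ligand of VLA-4 (Itga4 with Itgb1), was at 2.64 and 3.09 FPKM in db_REG3B, against 13.2 and 13.2 FPKM in db_GFP. In both genes the replicates lay close together and the groups far apart. Icam1 changed by -2.07 ± 0.07 (adjusted p = 7.15e-07) and Vcam1 by -1.83 ± 0.07 (adjusted p = 1.25e-06). The order of mean levels in db_REG3B was Cxcl16, Cx3cl1, Vcam1, Cxcl12, Icam1, Ccl5 and Cxcl1, which overlapped, and then Ccl2. In db_GFP it was Cxcl16, Ccl2 and Vcam1, Icam1, Cx3cl1, Cxcl1 and Cxcl12, then Ccl5, where the joined neighbours overlapped.

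**Figure D1:**
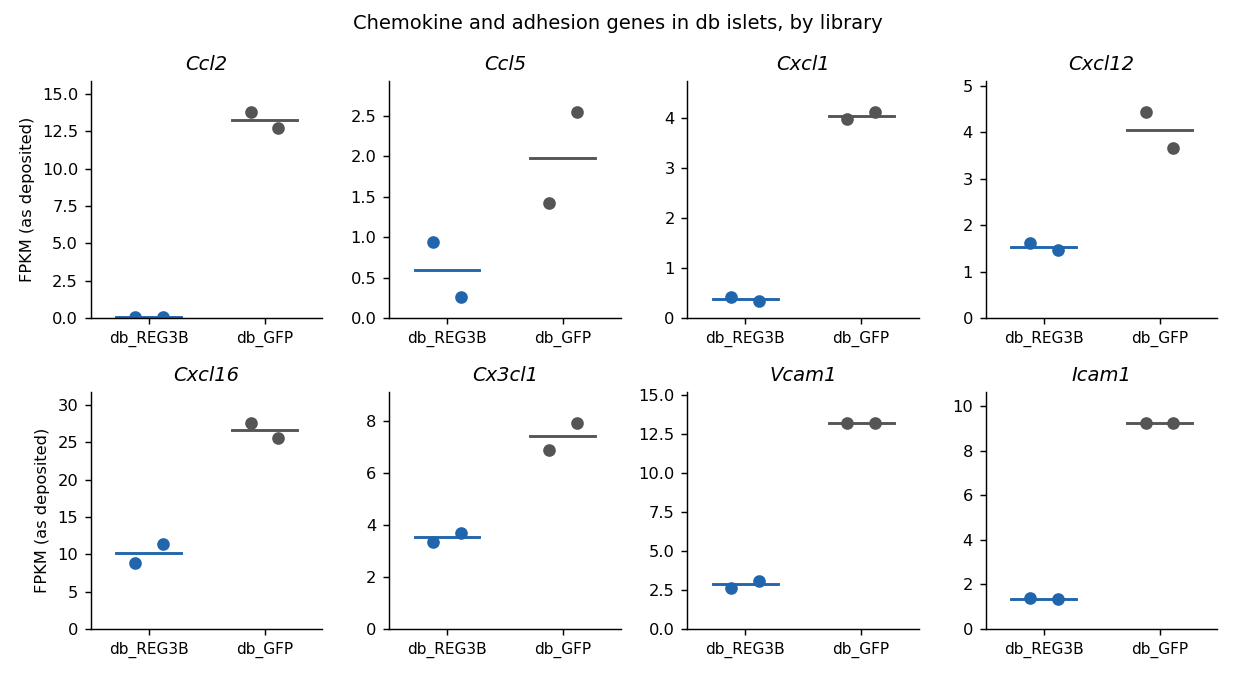
FPKM as deposited (y axis, from 0, a scale per gene) of the 8 genes in db_REG3B and db_GFP libraries; points are libraries and bars the mean of 2. Every gene is lower in both db_REG3B libraries, from Cx3cl1 at 3.34 and 3.71 FPKM in db_REG3B, against 6.90 and 7.95 FPKM in db_GFP, to Ccl2 at 0.11 and 0.11 FPKM in db_REG3B, against 13.8 and 12.7 FPKM in db_GFP.

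Among chemokines beside these members, 25 of 30 were listed in the db table, and 13 were tested. Of these 9 had fewer than 2 libraries at 1 FPKM outside db_GFP, so they could enter the test only by being higher there. Genes of that kind are left out of the list counts and medians that follow. Of the other 4 chemokines 1 fell and 0 rose in db_REG3B, with a median change of -0.02; the 1 that fell was Cxcl14 (-1.21), named after its value was seen. Ccl8, a monocyte attractant, was listed at 0 and 0 FPKM in db_REG3B, against 5.19 and 7.11 FPKM in db_GFP (adjusted p = 3.03e-06). Ccl7, another Ccr2 ligand, was at 0.22 and 0.67 FPKM in db_REG3B, against 5.87 and 6.04 FPKM in db_GFP. The eosinophil attractant Ccl11 (-2.15), the neutrophil attractant Cxcl3 (-2.10) and Ccl7 (-2.25) fell as well. These 4 are among the 9 that entered through db_GFP alone. The epithelial chemokine Ccl28 was at 5.86 and 5.86 FPKM in db_REG3B, against 6.35 and 5.73 FPKM in db_GFP, and did not pass (0.01, adjusted p = 0.910).

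The receptors of the 8 genes were examined next. Cxcr4 was at 7.51 and 6.41 FPKM in db_REG3B, against 12.7 and 13.8 FPKM in db_GFP, and fell by 0.79 (adjusted p = 2.49e-04). Cx3cr1, a receptor of macrophages and microglia, was at 3.72 and 4.02 FPKM in db_REG3B, against 8.01 and 7.22 FPKM in db_GFP, and fell by 0.78. Ccr1 (-0.92) and Ackr3 (-0.66), which scavenges Cxcl12, fell as well. Leaving out Ccr1, which reached 1 FPKM in db_GFP alone, 4 of 4 tested receptors were lower, with a median change of -0.72. Ccr2, Cxcr2 and Cxcr6 were under 1 FPKM in every db library and were not tested.

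Of the other adhesion molecules 9 of 10 fell and 0 rose (median -0.47), with Mcam (-1.22), Cd34 (-1.22), Icam2 (-1.08) and Pecam1 (-0.86) foremost, all of them present on endothelium. Of the integrins 3 of 3 fell (median -0.81), namely the shared leukocyte chain Itgb2 (-1.15), Itgax (-0.81) and Itgb1 (-0.58). Of the cytokine inducers and NF-kB pathway genes 10 of 17 fell and 1 rose (median -0.34). Il6 was at 1.18 and 1.77 FPKM in db_REG3B, against 5.23 and 5.29 FPKM in db_GFP. The cytokines Il6 (-1.31) and Il1b (-0.93) and the TNF receptor Tnfrsf1b led those that fell, while the subunit Rela did not pass (-0.11, adjusted p = 0.186). Itgam (-0.90), Itgal and Il1a (-1.01) entered the test through db_GFP alone. Adam10 fell by 0.24 (adjusted p = 0.00319) and Adam17 did not pass (-0.18, adjusted p = 0.0539).

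Markers of other cells moved with these genes. Mrc1, Pdgfra, Tek, Sox9, Cd4, Cd22 and Csf3r passed the minimum through db_GFP alone. Amy2b and Cd79a passed it through db_REG3B alone, and none of these genes is in the counts. Macrophage markers fell in 8 of 8 genes, and their summed level was 399 and 415 FPKM in db_REG3B, against 852 and 855 FPKM in db_GFP. Stellate and fibroblast markers fell in 7 of 8, with sums of 251 and 265 FPKM in db_REG3B, against 1367 and 1347 FPKM in db_GFP. Endothelial markers fell in 9 of 9, with sums of 58.1 and 62.8 FPKM in db_REG3B, against 114.5 and 115.2 FPKM in db_GFP; Pecam1 and Esam are in both this and the adhesion list. Duct markers fell in 5 of 5, with sums of 625 and 664 FPKM in db_REG3B, against 1448 and 1450 FPKM in db_GFP. Alpha cell markers fell in 5 of 5, with sums of 22394 and 22614 FPKM in db_REG3B, against 41748 and 42576 FPKM in db_GFP, and acinar markers fell in 6 of 9 and rose in 1. Beta cell markers rose in 7 of 8, with sums of 698002 and 719090 FPKM in db_REG3B, against 379221 and 384783 FPKM in db_GFP. T and NK cell markers, 6 of 10 listed, summed to 0.81 and 0.71 FPKM in db_REG3B, against 1.36 and 1.91 FPKM in db_GFP, with Cd2, Cd8a, Nkg7 and Gzmb at 0 in db_REG3B and Cd3d at 0 in db_GFP. Cd4 made up most of these sums, at 0.71 to 0.72 FPKM in db_REG3B, against 1.26 to 1.53 FPKM in db_GFP. B cell markers summed to 2.00 and 2.34 FPKM in db_REG3B, against 1.82 and 2.11 FPKM in db_GFP, with Ms4a1 and Blk at 0 in db_GFP. Neutrophil markers were listed for 3 of 6 genes, with S100a8 and S100a9 at 0 in db_REG3B, and lymphoid stroma markers for 3 of 7, with 0 tested. The part of these shifts in the results above was not tested. In such bulk samples fewer cells of a type and less RNA per cell cannot be told apart.

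The KO_PBS libraries were set against CTR_PBS next. After median scaling Ccl5, Cxcl12, Cxcl16, Vcam1 and Icam1 rose in KO_PBS, 5 of the 6 members tested, and Cx3cl1 did not pass. As deposited, 4 rose, Cx3cl1 fell and Cxcl16 did not pass. In this comparison 25.0% of 11789 tested genes were called higher and 19.6% lower after median scaling. The split was 2943 higher and 2308 lower, and as deposited it was 1021 higher and 9603 lower. The median change of the 6 was 1.35, against 0.00 over all tested genes, and none of the 6 owed its place in the test to 1 group. Ccl2 and Cxcl1 stayed under 1 FPKM in every library of this table.

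Vcam1 was at 5.53 and 4.98 FPKM in KO_PBS, against 0.77 and 0.79 FPKM in CTR_PBS. The KO_PBS libraries lay far above, and the change of 2.21 ± 0.06 (adjusted p = 1.04e-07) was the widest of the 6. Icam1 was at 2.64 and 2.87 FPKM in KO_PBS, against 1.30 and 0.94 FPKM in CTR_PBS. It had no overlap either, and changed by 1.20 ± 0.09 (adjusted p = 1.17e-05).

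Ccl5 was at 7.33 and 7.29 FPKM in KO_PBS, against 2.39 and 2.05 FPKM in CTR_PBS. Cxcl12 was at 4.58 and 4.36 FPKM in KO_PBS, against 1.6 and 1.53 FPKM in CTR_PBS. Both secreted chemokines were high in both KO_PBS libraries, by 1.82 ± 0.07 for Ccl5 (adjusted p = 3.24e-07) and 1.51 ± 0.07 for Cxcl12 (adjusted p = 1.34e-06). Ccl2 was at 0.46 and 0.34 FPKM in KO_PBS, against 0.29 and 0.12 FPKM in CTR_PBS. Its groups lay apart at a very low level, and without a filter it changed by 0.36 (adjusted p = 0.0152). The authors' deposited DESeq2 result gives Ccl2 an adjusted p of 0.432 here. Cxcl1 was at 0.18 and 0.27 FPKM in KO_PBS, against 0.23 and 0.09 FPKM in CTR_PBS, which overlapped.

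The transmembrane pair depended on the scale. Cxcl16 was at 3.21 and 3.31 FPKM in KO_PBS, against 3.27 and 2.70 FPKM in CTR_PBS, which overlapped as deposited (0.10, adjusted p = 0.345). After median scaling it changed by 0.51 ± 0.10 (adjusted p = 0.00352), and under scaling to an equal sum outside acinar, REG and insulin genes its change was -0.0032. The authors' deposited DESeq2 result gives Cxcl16 a log2 fold change of 0.62 and an adjusted p of 0.0456 in KO_PBS. Cx3cl1 was at 2.42 and 2.27 FPKM in KO_PBS, against 4.06 and 3.74 FPKM in CTR_PBS. It was lower as deposited (-0.55, adjusted p = 7.97e-05), and after median scaling the change was -0.15 ± 0.07 (adjusted p = 0.0980).

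**Figure D2:**
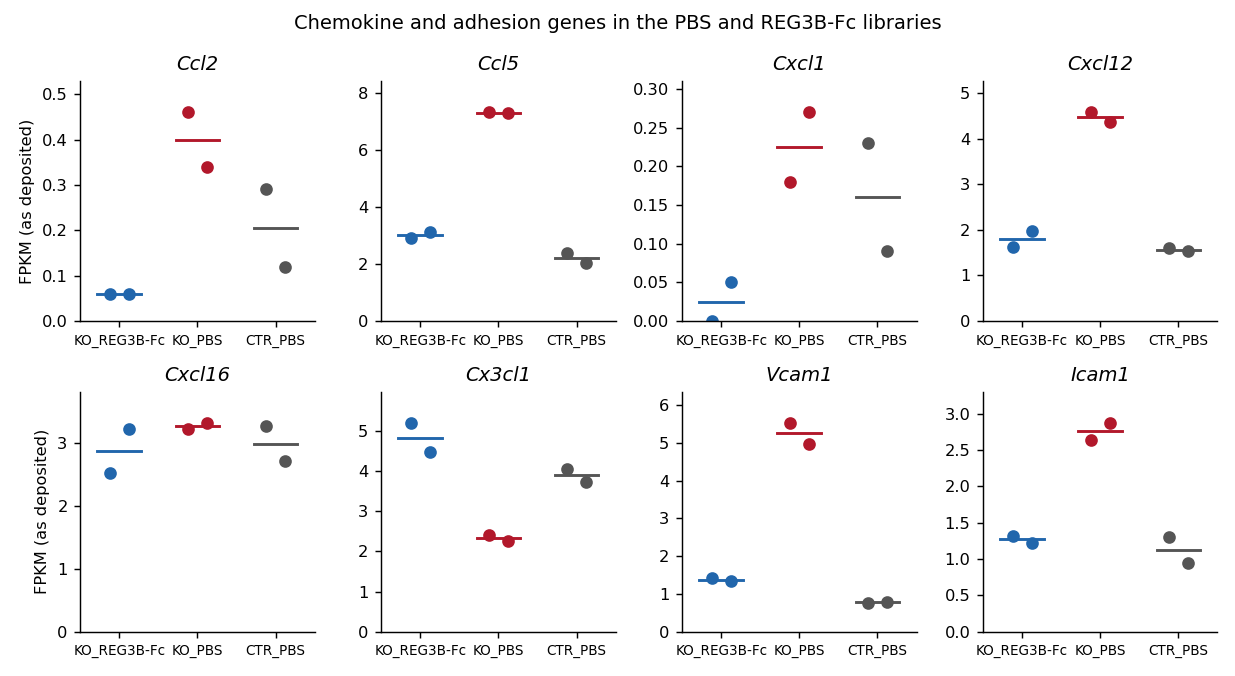
FPKM as deposited (y axis, from 0, a scale per gene) of the 8 genes in KO_REG3B-Fc, KO_PBS and CTR_PBS libraries; points are libraries and bars the mean of 2. Vcam1, Ccl5, Cxcl12 and Icam1 are highest in KO_PBS (Vcam1 5.53 and 4.98 FPKM), while Cx3cl1 is lowest there at 2.42 and 2.27 FPKM.

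KO_REG3B-Fc was set against the same KO_PBS libraries, so this comparison shares them with the one above and the values are placed side by side. After median scaling Ccl5, Cxcl12, Cxcl16, Vcam1 and Icam1 fell and Cx3cl1 rose in KO_REG3B-Fc. In all, 24.8% of tested genes were called lower and 20.0% higher (2361 higher and 2927 lower after median scaling, 10157 higher and 822 lower as deposited). The median change of the 6 was -1.30, against 0.00 over all tested genes.

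Vcam1 was at 1.42 and 1.33 FPKM in KO_REG3B-Fc, against 5.53 and 4.98 FPKM in KO_PBS, and changed by -1.87 ± 0.06 (adjusted p = 1.79e-07). Icam1 was at 1.32 and 1.22 FPKM in KO_REG3B-Fc, against 2.64 and 2.87 FPKM in KO_PBS, and changed by -1.15 ± 0.09 (adjusted p = 1.58e-05). Both adhesion genes were lower in each KO_REG3B-Fc library than in either KO_PBS library. Ccl5 was at 2.91 and 3.14 FPKM in KO_REG3B-Fc, against 7.33 and 7.29 FPKM in KO_PBS, and changed by -1.57 ± 0.07 (adjusted p = 6.16e-07). Cxcl12 was at 1.63 and 1.97 FPKM in KO_REG3B-Fc, against 4.58 and 4.36 FPKM in KO_PBS, and changed by -1.45 ± 0.07 (adjusted p = 1.69e-06). The secreted chemokines thus had no overlap between the groups.

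Cx3cl1 went the other way, with 5.2 and 4.47 FPKM in KO_REG3B-Fc, against 2.42 and 2.27 FPKM in KO_PBS, and changed by 0.32 ± 0.07 (adjusted p = 0.00557; 0.80 as deposited). Cxcl16 was at 2.51 and 3.21 FPKM in KO_REG3B-Fc, against 3.21 and 3.31 FPKM in KO_PBS. Its groups touched as deposited (-0.15, adjusted p = 0.168), and among the scalings run it passed after median scaling only (-0.63 ± 0.10, adjusted p = 0.00118). The authors' deposited DESeq2 result also has Cxcl16 lower here (log2 fold change -0.79, adjusted p = 0.00972). Ccl2 was at 0.06 and 0.06 FPKM in KO_REG3B-Fc, against 0.46 and 0.34 FPKM in KO_PBS, a change without a filter of -0.53 (adjusted p = 0.00417). Cxcl1 was listed at 0 and 0.05 FPKM in KO_REG3B-Fc, against 0.18 and 0.27 FPKM in KO_PBS, with -0.34 without a filter (adjusted p = 0.0152). In the authors' deposited DESeq2 results neither passed, with an adjusted p of 0.0915 for Ccl2 and 0.156 for Cxcl1.

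Against CTR_PBS, the KO_REG3B-Fc libraries passed the test in Vcam1 alone among the 6 tested members. It was at 1.42 and 1.33 FPKM in KO_REG3B-Fc, against 0.77 and 0.79 FPKM in CTR_PBS, a change of 0.34 ± 0.06 (adjusted p = 0.0126) that did not pass when any 1 of these 4 libraries was left out (adjusted p from 0.0676 to 0.0894). In this comparison 5.59% of tested genes were called higher and 5.10% lower (659 higher and 601 lower after median scaling, 1977 higher and 338 lower as deposited). Ccl5 had a change of 0.24 ± 0.07 (adjusted p = 0.0561) and Cx3cl1 of 0.16 ± 0.07 (adjusted p = 0.170); as deposited they passed at 0.0125 and 0.0463. Cxcl12 (0.06 ± 0.07), Icam1 (0.05 ± 0.09) and Cxcl16 (-0.12 ± 0.10) did not pass, which does not show that the groups are alike. The order of mean levels in KO_REG3B-Fc was Cx3cl1, Ccl5 and Cxcl16, which overlapped, Cxcl12, Vcam1, Icam1, Ccl2 and Cxcl1. In KO_PBS it was Ccl5, Vcam1, Cxcl12, Cxcl16, Icam1, Cx3cl1, Ccl2 and Cxcl1, and in CTR_PBS Cx3cl1, Cxcl16, Ccl5, Cxcl12, Icam1, Vcam1, then Ccl2 and Cxcl1, which overlapped.

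**Figure D3:**
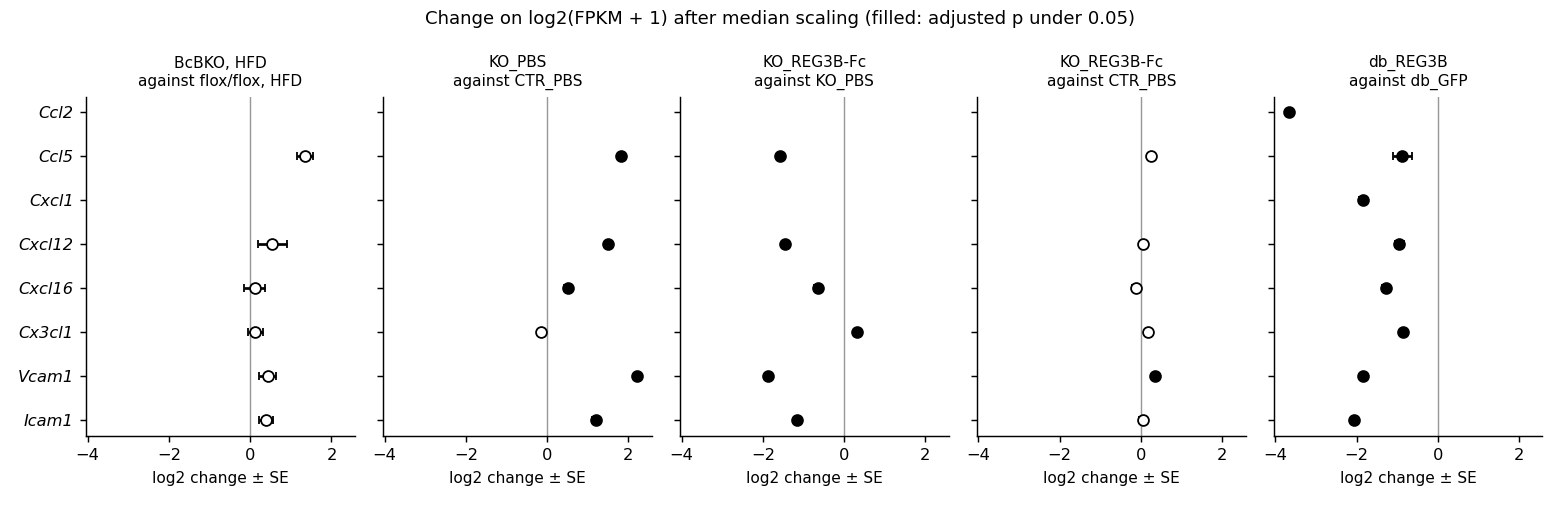
Log2 change ± SE on log2(FPKM + 1) after median scaling (x axis, shared by the panels) for the members tested (rows) in the 5 comparisons (panels); filled points have an adjusted p under 0.05. Vcam1 is at 2.21 for KO_PBS against CTR_PBS and at -1.87 for KO_REG3B-Fc against KO_PBS, 2 panels that share the KO_PBS libraries.

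The rest of the pathway in this table was counted in the same way, first for KO_PBS against CTR_PBS. Of 10 tested chemokines beside the members, Ccl8, Ccl21a, Cxcl10, Cxcl13 and Pf4 had fewer than 2 libraries at 1 FPKM outside KO_PBS and could enter the test only by being higher there. Of the other 5, Ccl19, Ccl6 and Ccl11 rose and Ccl28 fell, with a median change of 0.79. The counts and medians that follow leave out genes that entered through KO_PBS alone. Cxcl13, the B cell attractant of lymphoid follicles, was at 6.54 and 6.46 FPKM in KO_PBS, against 0.22 and 0.07 FPKM in CTR_PBS (3.08, adjusted p = 6.17e-08). Ccl19 (1.87) and Ccl21a (2.81), ligands of Ccr7 in lymphoid tissue, rose as well, although Ccl21a has near-identical copies in the genome and its count is uncertain. Ccl28 fell (-0.91).

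Of 3 receptors Cxcr4 (0.98) and Ackr3 (0.32) rose, with a median of 0.32, and 1 rose as deposited. Cxcr5 (1.80) and Ccr6, which guide B cells, entered the test through KO_PBS alone. Ccr6 was at 1.52 and 1.34 FPKM in KO_PBS and was listed at 0 in both CTR_PBS libraries. Cxcr4, the receptor of Cxcl12, was at 5.35 and 4.88 FPKM in KO_PBS, against 3.26 and 3.18 FPKM in CTR_PBS. Cx3cr1 did not pass (0.12, adjusted p = 0.229). Of 3 integrins 3 rose (median 0.47), among them Itgb2 (1.45), a chain of the Icam1 receptor. As deposited, 1 rose and 1 fell, and Itgb1 was at 32.4 and 31.8 FPKM in KO_PBS, against 40.8 and 40.8 FPKM in CTR_PBS. Of 11 other adhesion molecules 7 rose and 1 fell after median scaling (median 0.19), while 1 rose and 7 fell as deposited. The selectin ligand Selplg (0.91) was among those that rose. Of 14 cytokine and NF-kB genes 9 rose and 1 fell (median 0.29), while 4 rose and 7 fell as deposited, and Relb (0.79) was among those that rose. Adam17 (0.32) and Adam10 (0.22) rose after median scaling only. Madcam1, an addressin of high endothelial venules (1.52), Itgal (1.19) and Tnfrsf1b (0.84) entered through KO_PBS alone.

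In KO_REG3B-Fc against KO_PBS, with the same genes left out, 3 of 5 other chemokines fell and 0 rose. Of the receptors 3 of 3 fell, as did 7 of 11 adhesion molecules, 3 of 3 integrins and both shedding proteases. Cxcl13 was at 0.18 and 0.11 FPKM in KO_REG3B-Fc and fell by 3.09, which its entry through KO_PBS fixed in direction. Of the cytokine and NF-kB genes 10 of 14 fell and 1 rose. Median changes were -0.68 for the chemokines, -0.25 for the adhesion list, -0.57 for the integrins and -0.39 for the NF-kB list. As deposited the chemokine list had 2 higher and 3 lower, the receptors 1 lower, the integrins 1 higher and 2 lower, the adhesion list 8 higher and 1 lower, the NF-kB list 8 higher and 3 lower, and the proteases 2 higher. In KO_REG3B-Fc against CTR_PBS, where no gene of these lists entered through 1 of the 2 groups alone, all tested genes of the lists had 2 higher and 1 lower chemokines, 1 lower receptor, 1 lower adhesion molecule, 0 called integrins, 1 higher and 4 lower cytokine and NF-kB genes, and 1 lower protease. The chemokines called there were Ccl19 (0.85), Ccl6 (0.54) and Ccl28 (-1.06).

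Marker levels in this table moved with the members. For B cells 7 of 8 tested markers entered through KO_PBS alone, and the other 1 rose in KO_PBS; their sums were 4.30 and 4.27 FPKM in KO_REG3B-Fc, 66.3 and 65.4 FPKM in KO_PBS, against 3.40 and 3.67 FPKM in CTR_PBS, where Ms4a1 was at 0. Lymphoid stroma markers, which share Ccl19, Ccl21a, Cxcl13, Madcam1 and Glycam1 with the lists above, were tested for 5 genes, of which 4 entered through KO_PBS alone and Ccl19 rose. They summed to 4.47 and 4.63 FPKM in KO_REG3B-Fc, 21.1 and 21.3 FPKM in KO_PBS, against 1.63 and 1.64 FPKM in CTR_PBS, with Cr2 at 0 in CTR_PBS and Glycam1 at 0 in KO_PBS. The 2 tested T and NK cell markers, Cd2 and Cd3g, both entered through KO_PBS alone, and the list had sums of 0.62 and 0.96 FPKM in KO_REG3B-Fc, 6.11 and 7.15 FPKM in KO_PBS, against 0.59 and 0.45 FPKM in CTR_PBS; Gzmb was at 0 in KO_REG3B-Fc and CTR_PBS.

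Macrophage markers rose in 8 of 8 tested genes, with sums of 103.7 and 101.5 FPKM in KO_REG3B-Fc, 176 and 169 FPKM in KO_PBS, against 78.4 and 78.9 FPKM in CTR_PBS. Acinar markers rose in 10 of 10, with sums of 125411 and 124251 FPKM in KO_REG3B-Fc, 279003 and 292104 FPKM in KO_PBS, against 149485 and 151549 FPKM in CTR_PBS. Stellate and fibroblast markers rose in 6 of 8. Endothelial markers had 7 higher and 2 lower after median scaling, and 0 higher and 8 lower as deposited. Beta cell markers fell in 6 of 8, alpha cell markers rose in 2 of 5 after median scaling and fell in 5 of 5 as deposited, duct markers had 3 higher and 2 lower, and the 1 tested neutrophil marker entered through KO_PBS alone. In KO_REG3B-Fc against KO_PBS the macrophage (8 of 8) and acinar (10 of 10) markers fell, as did 7 of 8 stellate markers, while 5 of 8 beta cell and 5 of 5 alpha cell markers rose. Endothelial markers had 2 higher and 6 lower after median scaling, and 9 higher and 0 lower as deposited, and duct markers had 2 higher and 3 lower, and 3 higher and 2 lower as deposited. The 1 B cell and the 1 lymphoid stroma marker that did not enter through KO_PBS alone fell. In KO_REG3B-Fc against CTR_PBS, 5 of 8 stellate, 3 of 8 macrophage and 5 of 5 alpha cell markers rose, 9 of 10 acinar markers fell, and 0 B cell and 0 T and NK cell markers were called. The part of these markers in the members' changes was not tested.

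On high-fat diet 6 of the 8 genes had values, and Ccl2 and Cxcl1 were not analysed here. None of the 6 passed the limma test, on either scale. In this comparison 0.00865% of 11560 tested genes were called, which is the gene Zfp423 alone, named after its value was seen, and 299 genes had an unadjusted p under 0.05. Vcam1 entered the test through BcBKO alone, so its lack of overlap carries no weight in a count. Of the other 5 members, Ccl5 and Icam1 did not overlap, each higher in the libraries labelled BcBKO. Among all tested genes 27.3% did not overlap.

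Ccl5 was at 10.1 and 11.9 FPKM in the libraries labelled BcBKO, against 2.87 and 4.09 FPKM in those labelled flox/flox. Both BcBKO values exceeded both flox/flox values, a difference of 1.35 ± 0.20 with an unadjusted p of 9.72e-04 and an adjusted p of 0.9997 by limma. With same-numbered libraries fitted as blocks, the adjusted p by limma was 0.0723. The authors' deposited table gives Ccl5 a log2 fold change of 1.61 and an adjusted p of 0.0432, and calls 21 of 12822 genes at 0.05. Vcam1 was at 1.81 and 2.05 FPKM in the libraries labelled BcBKO, against 0.78 and 1.45 FPKM in those labelled flox/flox (0.43 ± 0.21). Icam1 was at 3.35 and 2.39 FPKM in the libraries labelled BcBKO, against 1.63 and 1.99 FPKM in those labelled flox/flox (0.39 ± 0.18). Vcam1 had 1 library at 1 FPKM outside BcBKO and entered the test through BcBKO. The gaps of Vcam1 and Icam1 between groups were narrow beside the spread within a group.

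Cxcl12 was at 3.72 and 5.41 FPKM in the libraries labelled BcBKO, against 1.61 and 3.95 FPKM in those labelled flox/flox (0.54 ± 0.36). Cxcl16 was at 4.40 and 4.98 FPKM in the libraries labelled BcBKO, against 2.99 and 5.24 FPKM in those labelled flox/flox (0.12 ± 0.26). Cx3cl1 was at 8.02 and 5.64 FPKM in the libraries labelled BcBKO, against 6.54 and 5.00 FPKM in those labelled flox/flox (0.13 ± 0.19). These 3 overlapped. Of the pathway lists 0 genes were called by limma in either direction, out of 11 other chemokines, 3 receptors, 14 adhesion molecules, 4 integrins, 15 cytokine and NF-kB genes and 2 proteases tested. Cxcl9, an interferon-induced T cell attractant, was at 1.72 and 1.16 FPKM in the libraries labelled BcBKO, against 0.19 and 0.58 FPKM in those labelled flox/flox (0.78 ± 0.22, unadjusted p = 0.0171); it too entered the test through BcBKO. Its relative Cxcl10 was at 8.43 and 2.16 FPKM in the libraries labelled BcBKO, against 2.02 and 1.77 FPKM in those labelled flox/flox.

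In the same libraries lymphoid stroma markers, 2 of 7 listed, summed to 4.64 and 21.6 FPKM in those labelled BcBKO, against 3.37 and 6.39 FPKM in those labelled flox/flox. These sums were mostly Glycam1, at 3.88 and 19.1 FPKM in BcBKO, against 2.55 and 5.33 FPKM in flox/flox libraries. B cell markers, 7 of 8 listed, summed to 16.9 and 11.9 FPKM in those labelled BcBKO, against 11.5 and 10.2 FPKM in those labelled flox/flox. Macrophage markers summed to 131 and 122 FPKM in BcBKO and 92.2 and 127 FPKM in flox/flox libraries, and endothelial markers to 313 and 345 FPKM in BcBKO and 272 and 240 FPKM in flox/flox libraries. Acinar markers summed to 29478 and 29337 FPKM in BcBKO, against 20988 and 65901 FPKM in flox/flox libraries. T and NK cell markers were not analysed here. No marker list had a called gene, and their part in the Ccl5 values was not tested.

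**Figure D4:**
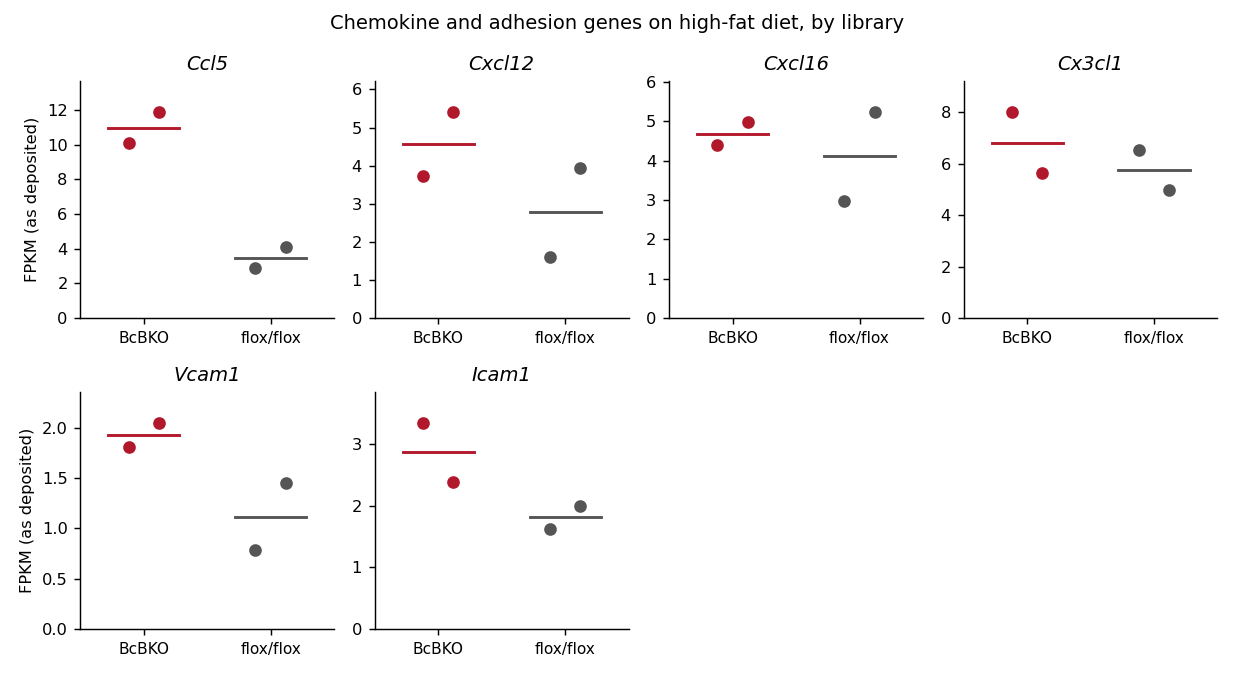
FPKM as deposited (y axis, from 0, a scale per gene) of the 6 genes with values in the libraries labelled BcBKO and flox/flox on high-fat diet; points are libraries and bars the mean of 2. Ccl5 is separated, with 10.1 and 11.9 FPKM in BcBKO, against 2.87 and 4.09 FPKM in flox/flox, while Cxcl12, Cxcl16 and Cx3cl1 overlap.

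The 5 WT libraries have no contrast and show how far these genes vary among libraries with no treatment in their labels. Among the 8 genes Ccl5 had the widest spread, at 14.8, 24.1, 39.2, 1.99 and 1.56 FPKM in WT 1 to 5 (mean 16.3 ± 15.9, SD, n = 5). Without WT 3 the mean was 10.6 FPKM. WT 1, 2 and 3 were high and WT 4 and 5 low. Cxcl12 was at 5.64, 10.1, 4.62, 1.23 and 2.53 FPKM, Vcam1 at 1.82, 3.80, 2.18, 0.93 and 0.78 FPKM, and Icam1 at 2.33, 2.44, 1.85, 0.96 and 1.08 FPKM. In each of these genes WT 4 and 5 were the lowest. Cx3cl1 was lowest in WT 2 and 3, at 3.63, 2.31, 1.97, 4.65 and 3.95 FPKM. Cxcl16 kept a narrow range of 3.48 ± 0.77 FPKM (SD, n = 5), while Ccl2 stayed at or under 0.77 FPKM and Cxcl1 at or under 0.83 FPKM. The 8 genes summed to 32.3 ± 18.9 FPKM (SD, n = 5).

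In the same order, lymphoid stroma markers summed to 71.7, 53.3, 64.0, 1.53 and 1.40 FPKM, B cell markers to 29.6, 61.1, 24.8, 8.95 and 3.56 FPKM, and T and NK cell markers to 11.6, 18.6, 7.49, 0.29 and 1.22 FPKM. All were low in WT 4 and 5. Acinar markers summed to 283244, 367838, 372530, 50541 and 148036 FPKM. Macrophage markers, at 134, 143, 92.2, 101.4 and 75.7 FPKM, and endothelial markers, at 173, 112, 107, 156 and 187 FPKM, did not follow that order as deposited. After median scaling the macrophage sums were 124, 173, 119, 80.8 and 65.7, so they too were lowest in WT 4 and 5. The scaled endothelial sums were 160, 136, 139, 124 and 163, which did not follow that order. The part of these markers in the members' levels was not tested.

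**Figure D5:**
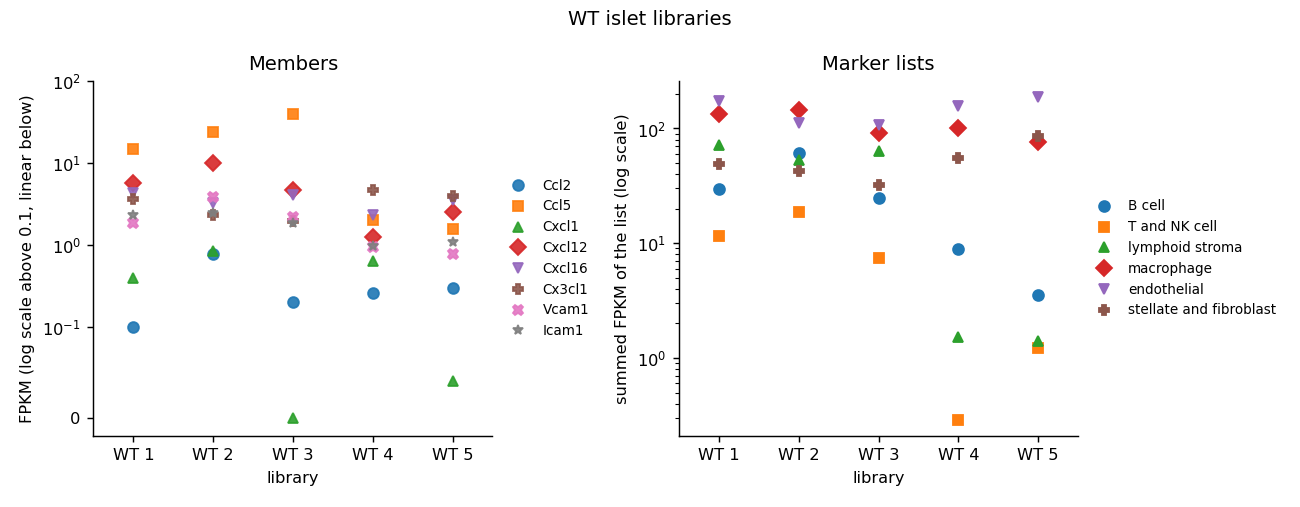
Left, FPKM as deposited of the 8 genes in the 5 WT libraries (y axis logarithmic above 0.1 and linear below); right, summed FPKM of marker lists in the same libraries (log axis). Ccl5 is at 14.8, 24.1 and 39.2 FPKM in WT 1 to 3 and at 1.99 and 1.56 FPKM in WT 4 and 5, where the B cell, T and NK cell and lymphoid stroma sums are also lowest.

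Across all 19 libraries, the genes whose level was most like a member's were found by the smallest root mean square difference in log2(FPKM + 1), centred on each table, among 8964 genes. This is a description over libraries that share tables, for the 6 members present in all tables. The difference grows with how far a member varies, so each is given beside that of the median gene and the members are not ranked by it. Cx3cl1 was nearest Plpp1 (0.08, median gene 0.28), and Icam1 nearest Marcksl1 (0.13, median gene 0.68). Cxcl16 was nearest C1qc (0.14, median gene 0.45), and Cxcl12 nearest Cnn2 (0.17, median gene 0.74). Vcam1 was nearest Capg (0.19, median gene 0.83), and Ccl5 nearest Cyba (0.48, median gene 1.14).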

How the data were processed

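Messenger RNA of pooled islets was sequenced in paired-end mode (BGISEQ-500), per the labels' protocols. The authors deposited FPKM for 19 libraries and TPM as well for the 4 HFD libraries. The authors also deposited log2 fold changes, each with a p-value and an adjusted p; in the PBS and db tables the authors used DESeq2, per the file headers. The build is GRCm38.p6 per the submitters' processing notes; the aligner is not given in the sources used here. The labels name 25 samples, of which the chow groups, 3 samples each, were not analysed here. Each table was median scaled (libraries divided by their median ratio to the geometric mean library) and fitted on log2(FPKM + 1), all groups in 1 fit, using R 4.3.3 and limma 3.58.1 (empirical Bayes, trend), for genes of at least 1 FPKM in at least 2 libraries. Tests were two-sided, at 0.05 after Benjamini-Hochberg adjustment. The test was checked on simulated data. Named genes were the 8 members, their receptors and integrins, up to 4 genes per list with the largest passing change, and the 3 genes most like each member; some of these are not reported here. The members and lists were chosen with earlier results of these data known. Alternatives were other scalings, pseudocount, filters, trend, TPM, replicate block, fewer groups and left-out libraries.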

Additional observations from a re-analysis of the deposited data

Results flagged for a closer look

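Cx3cl1 moved in opposite directions in the comparisons of a REG3B agent with its own controls. Its log2 change was 0.317 in KO_REG3B-Fc against KO_PBS, where both KO_REG3B-Fc libraries were higher, and -0.849 in db_REG3B against db_GFP, where both db_REG3B libraries were lower. The difference between them was not tested, since the agents and the mice differ and the tables were normalized separately. By Dixon's gap test, which looks for a lone library apart from the rest, no WT library was flagged in any member. It is not built to flag libraries that are low together, as WT 4 and 5 were in Ccl5, Cxcl12, Vcam1 and Icam1.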

How the results depend on the processing

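Depth is unknown, so members under 1 FPKM are the least certain. On HFD 0 members were called under every setting run, and the count of called genes was 0 with no filter, with no trend and with deposited TPM, 2 with the replicate block, and 0 to 1 with a library left out. KO_PBS against CTR_PBS called 10624 genes as deposited and 10963 at an equal sum outside acinar, REG and insulin genes, and KO_REG3B-Fc against KO_PBS 10979 and 11173. There Cxcl16 turned in KO_PBS to -0.0032 at an equal sum. KO_REG3B-Fc against CTR_PBS called 3 members as deposited, 2 at an equal sum, 2 with a pseudocount of 0.1 and 0 with any library left out; its genes were 2315 as deposited, 818 with no filter and 466 to 591 with a library left out. With a db library left out 5 to 8 members were called lower; without a db_GFP library Ccl2, Ccl5 and Cxcl1 missed the filter and the other 5 fell. A lone library was assumed to vary like the others. With a library left out the change ranged from -0.240 to 0.472 for Cxcl16 and from -0.0776 to 0.336 for Cx3cl1 on HFD, and in KO_REG3B-Fc against CTR_PBS from -0.0656 to 0.155 for Icam1, -0.252 to 0.0219 for Cxcl16 and -0.0328 to 0.151 for Cxcl12. The causes were not tested. Replicate differences of same-numbered libraries correlated at 0.670 on HFD and between -0.0508 and 0.0470 elsewhere. On HFD same-numbered libraries thus shared a difference that the reported test did not take out, and the labels do not say what it is. The replicate block changed no member's call and gave Ccl5 on HFD an adjusted p of 0.0723 (limma).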
